A study of Arabidopsis thaliana with 12 samples.

Results

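The genes described here are encoded in the plastid genome of Arabidopsis thaliana and carry out the plastid's own gene expression, together with the few plastid genes that belong neither to this machinery nor to photosynthesis. A gene was included where a probe set of the array matched it alone and its symbol does not start with psa, psb, pet, atp, ndh or rbc, the prefixes of the photosynthesis genes. This gave 26 genes with 1 probe set each, out of 22746 probe sets other than controls. They are 4 RNA polymerase genes, 7 large-subunit and 8 small-subunit ribosomal protein genes, and 7 others (accD, ccsA, cemA, clpP, matK, ycf3 and ycf4). For 6 further genes (rps7, rps12, rpl2, rpl23, ycf1 and ycf2) the probe sets match both copies of the plastid inverted repeat, and these were not analysed here.

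The seedlings were 4 days old and of the Landsberg erecta (Ler) background throughout, and RNA came from their aerial parts. They were grown in the dark (etiolated) or in red light at 0.5 µmol m-2 s-1 with long days. Within each light condition stood wild-type Ler and the mutant line atbzip16, named after a basic leucine zipper transcription factor. The labels give no allele for this line. No probe set carries the factor's name in the annotation, which names only some probe sets, so the targeted gene could not be read. Each of the 4 groups had 3 arrays, titled biological replicates. These 12 arrays set the precision of all values given. Sample titles decided the light condition and genotype, since 6 samples have a description that contradicts their title on light. The protocol text describes both total and polysome-bound RNA, and each sample is labelled total RNA. The label was followed here, so the signals are read as levels in total RNA.

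Plastids descend from cyanobacteria and keep a small genome that is read by RNA polymerases of separate origin. The bacterial-type polymerase has its core subunits encoded in the plastid (rpoA, rpoB, rpoC1 and rpoC2) and transcribes most photosynthesis genes in green tissue. A phage-type polymerase encoded in the nucleus transcribes the rpoB operon and contributes to many housekeeping genes such as accD and clpP. Plastid messages are commonly transcribed in polycistronic units and then cut, spliced and edited, and they are translated on bacterial-type ribosomes whose proteins are partly plastid-encoded and partly imported. During greening in light, etioplasts become chloroplasts and the demand for photosynthesis proteins rises. Standard array labelling primes from poly(A) tails, which mature plastid messages mostly lack, so the signals describe how these transcripts were labelled as well as how abundant they were.

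Signals are on a linear scale on which each array has a trimmed mean of 500. The median signal of an array lay between 149.45 and 186.3. Of the 26 genes, 25 lay above the low-signal limit, a geometric mean of 41.57 over all arrays. The exception was rps14, a small-subunit protein gene, with a mean signal of 28.35. Its signals were 46.3, 14.6 and 3 in dark Ler and 26, 35.9 and 22.4 in dark atbzip16. In red light they were 26, 64.1 and 12.9 in Ler and 116.6, 96.7 and 26.2 in atbzip16. The 4 groups overlapped. With no low-signal filter its average light response was 1.20 ± 0.67 (SE, log2, adjusted p = 0.267), and it is left out of the counts below. As a check of the tissue, listed markers were read where a probe set was named for them. Green-tissue markers (4 of 16 listed: LHCB4.1, LHCB4.2, PSAN, PSBY) summed to 19120 to 22640 in the dark and 51670 to 78450 in red light. Of the seed-maturation markers, 5 of 15 could be read. They summed to 20940 to 39040 in dark Ler, 50670 to 68670 in dark atbzip16 and 461.2 to 606.5 in red light. PAP85 and M17 gave most of the dark sums. OLEO3 went the other way, with means of 2289 in dark Ler and 1780 in dark atbzip16. In the dark, none of the 5 passed an adjusted p of 0.05 between genotypes (limma). With the replicate number in the model, 1 of them (PAP85) did. Root markers (3 of 10 could be read, and PYK10 gave nearly all of the sum) summed to 14510 to 22270 over all arrays. EXPA18 had group means of 31.67 to 117, and EXPA7 lay below the low-signal limit. The part of these tissue differences in the results below was not tested, and in bulk tissue fewer cells of a type and less RNA per cell cannot be told apart.

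The first question was what red light changed. Averaged over both genotypes, 6 arrays against 6, 4 of the 25 genes rose in red light and 5 fell at an adjusted p under 0.05 (limma, Benjamini-Hochberg over 15922 probe sets). The genes that rose were cemA, ccsA, ycf4 and accD, and those that fell were rpl22, rpl20, rpl14, rpoB and rpoC1. This is 36.0% of the genes, and among all probe sets tested 24.7% were called, 11.8% higher and 12.9% lower. Arrays with the same replicate number deviated together, so a fit with the replicate number as a block was also made. It left the fold changes as they were and called 16 of the 25, 7 higher and 9 lower, where 38.5% of all probe sets were called, 17.6% higher and 20.8% lower. It added clpP, rpl32 and rps4 to those that rose, and rpoC2, rps3, rps16 and rps18 to those that fell. In wild-type Ler alone 4 genes passed, cemA higher and rpl14, rpl22 and rpoC1 lower (background 11.4%, with 5.65% higher and 5.78% lower), and 12 passed with the block, 4 higher and 8 lower (background 23.6%, with 11% higher and 12.6% lower). In atbzip16 alone only cemA passed (background 14%, with 7.09% higher and 6.88% lower), and 9 genes passed with the block, 5 higher and 4 lower (background 26.5%, with 13.1% higher and 13.4% lower). The Ler count was 1 when dark replicate 3, red-light replicate 1 or red-light replicate 2 of Ler was left out, and 2 when its dark replicate 2 or red-light replicate 3 was. The atbzip16 count was 2 when dark replicate 2 or red-light replicate 1 of Ler was left out, arrays that enter this contrast only through the shared estimate of the spread. Each of the calls of rpl14, rpl22 and rpoC1 in Ler was lost in 5 of the 12 fits that left out 1 array, and that of cemA in 3, with log2 fold changes that stayed below 0 for the former and above 0 for cemA.

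A view that uses no model is whether the arrays of the light conditions overlapped. In Ler, 2 genes had all red-light arrays above all dark arrays (background 12.6%) and 5 had them below (background 15.6%). In atbzip16 the counts were 3 above (background 16.3%) and 3 below (background 16.7%). Over both genotypes together, 1 gene, cemA, lay above (background 6.9%) and 2, rpoB and rpl14, lay below (background 6.48%).

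The light responses of these genes were small and ran in both directions. Their median log2 fold change was 0.00 for the average, -0.08 in Ler and -0.01 in atbzip16, and the extremes of the average were -0.77 for rps16 and 0.58 for ccsA. Over all probe sets the corresponding medians were -0.05, -0.06 and -0.02. Among the 42 plastid-encoded photosynthesis genes above the low-signal limit, 25 rose and 1 fell on average, with a median of 0.45. Centring each array on its median raised the median light response of all probe sets by 0.13, to 0.08, and the median of the 25 genes then stood at 0.13 and that of the photosynthesis genes at 0.58. After quantile normalization the median of all probe sets was 0.01, that of the 25 genes was -0.16 and that of the photosynthesis genes 0.30, and 15 of the photosynthesis genes were called in place of 26. The calls on average then split into 4 higher and 2 lower with centring, and 3 higher and 5 lower with quantile normalization. Among all called probe sets 47.7% were higher without either, 67.2% with centring and 54.7% with quantile normalization. In Ler, where 1 higher and 3 lower were called, centring gave 3 higher (accD, ccsA and cemA) and 0 lower, and quantile normalization 0 higher and the same 3 lower. In atbzip16 centring gave 2 higher (ccsA and cemA), and quantile normalization gave 1 lower (rpl22) in place of cemA.

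**Figure D1:**
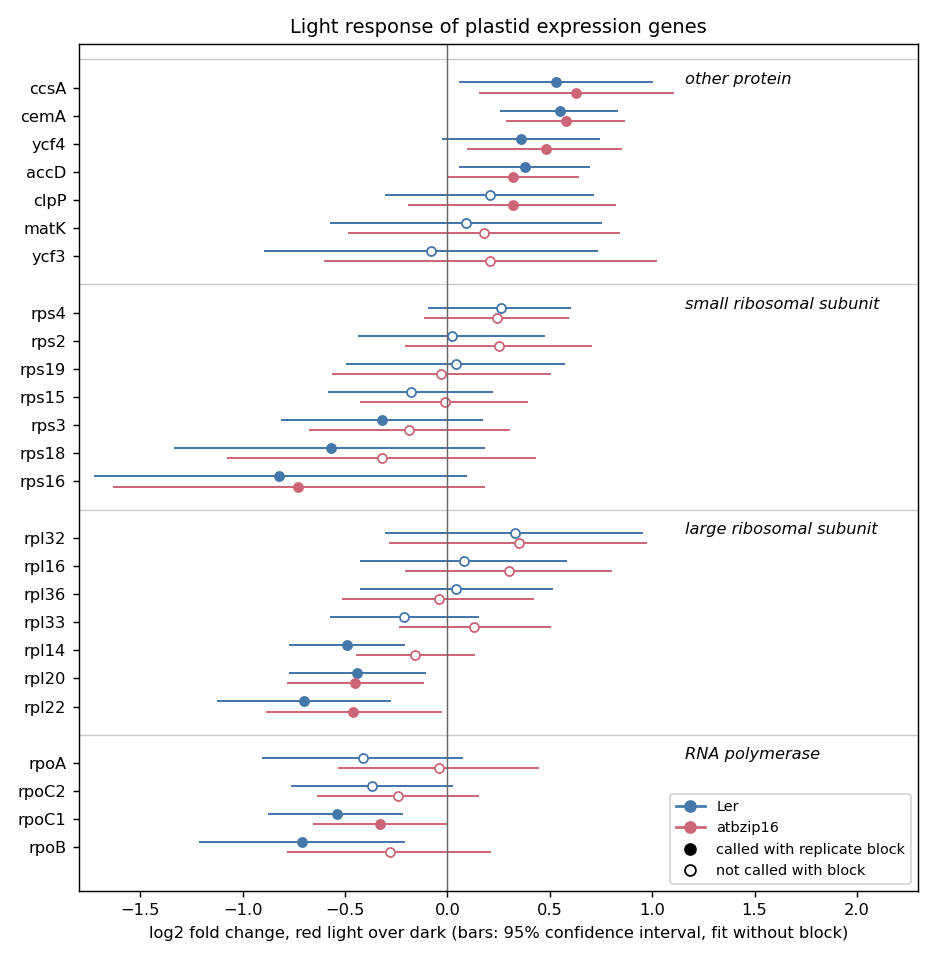
Log2 fold change of signal, red light over dark, for the 25 plastid genes above the low-signal limit, by role, in Ler (blue) and atbzip16 (red), 3 arrays against 3 each. Bars are 95% confidence intervals of the fit without the replicate block, and filled points passed an adjusted p of 0.05 in the fit with it. All 4 RNA polymerase genes lie left of 0 in both genotypes (rpoA in atbzip16 only at -0.04), and of the genes for other proteins only ycf3 in Ler does.

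All 4 genes for core subunits of the bacterial-type RNA polymerase had log2 fold changes below 0 in both genotypes, and rpoB and rpoC1 fell on average. For rpoA in atbzip16 the value was only -0.04 (95% confidence interval -0.53 to 0.44). The direction of all 4 averages was kept under median centring and quantile normalization. The average of rpoC1 was still called under both. That of rpoB was called under neither (-0.37 and -0.36, limma adjusted p = 0.0850 and 0.0829). In atbzip16 alone, 1 of the 4 turned positive under centring, namely rpoA. The beta' subunit gene, rpoC1, had signals of 2714, 3127 and 2419.8 in dark Ler and 1693, 2118 and 1851 in red-light Ler. The atbzip16 signals were 2291, 2688 and 2628 in the dark and 1775, 2393 and 1937 in red light. Every red-light Ler array lay below every dark Ler array, whereas in atbzip16 1 red-light array lay above the lowest dark one. The average log2 fold change of rpoC1 was -0.43 ± 0.11 (SE, adjusted p = 0.00946). It was -0.54 ± 0.15 in Ler (adjusted p = 0.0341) and -0.33 ± 0.15 in atbzip16 (adjusted p = 0.184, and 0.0253 with the replicate block).

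The rpoB gene encodes the beta subunit, which forms the catalytic centre together with the products of rpoC1 and rpoC2. Its signals were 193.2, 246.1 and 224.6 in dark Ler and 96.3, 148.1 and 171 in red-light Ler. For atbzip16 the signals were 199.5, 202.1 and 237.6 in the dark and 187.8, 192.1 and 147.6 in red light. All 6 red-light arrays lay below all 6 dark arrays, the only RNA polymerase gene of which this held. The average log2 fold change was -0.50 ± 0.16 (SE, adjusted p = 0.0407, and 0.0199 with the block). The response was -0.71 ± 0.23 in Ler and -0.28 ± 0.23 in atbzip16, with adjusted p values of 0.0663 and 0.475, and with the block 0.0285 and 0.379. The call on average was lost in 9 of 12 fits that each left out 1 array, with adjusted p of up to 0.0951. The 3 arrays whose removal kept it were replicate 1 of dark Ler, replicate 3 of red-light Ler and replicate 1 of red-light atbzip16.

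For rpoC2, which encodes the beta'' subunit, the signals were 1678, 2008 and 1485 in dark Ler and 1070.3, 1412 and 1528 in red-light Ler. They were 1951, 2396 and 1852 in dark atbzip16 and 1483, 1740.2 and 2035 in red-light atbzip16. The ranges overlapped in both genotypes, and the average of -0.31 ± 0.13 passed only with the replicate block (adjusted p = 0.0234, against 0.0967 without it). The alpha subunit gene rpoA lies apart from the rpoB operon, among ribosomal protein genes. Its signals were 7476, 5492 and 4029 in dark Ler and 3581, 3666 and 5321 in red-light Ler, and 5969, 5441 and 4827 in dark and 6283, 4484 and 5068 in red-light atbzip16. They overlapped between light conditions in both genotypes, and the average of -0.23 ± 0.16 passed neither fit (adjusted p = 0.317, and 0.193 with the block).

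Of the 7 genes for proteins of the large ribosomal subunit, rpl22, rpl20 and rpl14 fell on average and the other 4 did not pass. For rpl22, whose bacterial counterpart lines the exit tunnel of the ribosome, the signals were 10328, 13419 and 12839 in dark Ler and 6339, 8008 and 8179 in red-light Ler. They were 9178, 13552 and 13555 in dark atbzip16 and 6866, 9829.7 and 9692 in red-light atbzip16. In Ler the light conditions did not overlap, and in atbzip16 the low dark array was replicate 1. The average log2 fold change was -0.58 ± 0.14 (SE), a 1.49-fold lower signal, with an adjusted p of 0.00812. It was called in all 12 fits that left out 1 array, and under both other scalings. In atbzip16 alone the value of -0.46 ± 0.19 passed with the block (adjusted p = 0.00117) and not without it (adjusted p = 0.151).

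The rpl20 protein is likewise a component of the large subunit. Its signals were 436.6, 483.2 and 421.8 in dark Ler and 353.2, 317 and 319 in red-light Ler. In atbzip16 they were 611.7, 670.5 and 560.9 in the dark and 492.4, 369.3 and 493.3 in red light. Light conditions did not overlap within either genotype, but atbzip16 in red light reached the level of Ler in the dark. The average log2 fold change was -0.45 ± 0.11 (adjusted p = 0.00859), and the 2 genotypes gave -0.44 ± 0.15 and -0.45 ± 0.15, each called only with the block (adjusted p = 0.0417 and 0.0332). Under median centring the average was -0.32 and not called (adjusted p = 0.0681).

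The third gene, rpl14, had signals of 2375, 2172 and 2145 in dark Ler and 1712, 1679.8 and 1388 in red-light Ler. The atbzip16 signals were 2469, 1943 and 1957 in the dark and 1930.3, 1907 and 1847 in red light. All 6 red-light arrays lay below all 6 dark arrays. The average was -0.32 ± 0.09 (adjusted p = 0.0222), made up of -0.49 ± 0.13 in Ler (adjusted p = 0.0296) and -0.16 ± 0.13 in atbzip16 (adjusted p = 0.495, and 0.284 with the block). The average was not called when replicate 3 of red-light Ler or of red-light atbzip16 was left out (adjusted p of up to 0.0584), nor under median centring (-0.19).

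The rpl32 signals were 6598, 12074 and 7947 in dark Ler and 8427, 10932 and 13534 in red-light Ler, and 6706, 9099.5 and 10248 in dark and 7146, 12509 and 14439.9 in red-light atbzip16. They overlapped in both genotypes, and the average of 0.34 ± 0.20 passed only with the block (adjusted p = 0.0202, against 0.254 without it). For rpl16, a protein near the ribosome's tRNA sites, dark signals were 3023, 4517 and 3423 in Ler and 2848, 3614 and 3237 in atbzip16. Red-light signals were 2874, 4475 and 4266 and 2831, 4783 and 4633. The groups overlapped, and the average of 0.19 ± 0.16 passed neither fit (adjusted p = 0.430, and 0.0734 with the block). The averages of rpl33 and rpl36 were -0.04 and 0.00, and neither passed.

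On the signals as deposited, none of the 7 small-subunit genes above the low-signal limit passed the fit without the block on average, and 4 passed with it. The largest value was that of rps16, whose gene contains an intron. Its signals were 332.5, 1129 and 794.5 in dark Ler and 258.2, 485.6 and 435 in red-light Ler. For atbzip16 the signals were 486.1, 970.6 and 980.4 in the dark and 348.3, 537.5 and 543 in red light. Replicate 1 was the lowest array in all 4 groups, and with each replicate number taken by itself every red-light signal lay below its dark counterpart in the same genotype. The average log2 fold change was -0.77 ± 0.30 (SE), with an adjusted p of 0.0745 without the block and 0.000164 with it. The replicate block also called both single responses, -0.82 ± 0.42 in Ler and -0.73 ± 0.42 in atbzip16.

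For rps18 the signals were 2920.2, 7182 and 4559.9 in dark Ler and 2179.6, 3677 and 3613 in red-light Ler, and 2586, 4463 and 5602 in dark and 2424, 3792 and 3620.4 in red-light atbzip16. Replicate 1 was again the lowest in every group. The average was -0.45 ± 0.25 (adjusted p = 0.209, and 0.00331 with the block). The rps3 protein lies at the entry of the messenger RNA channel in bacterial ribosomes. Its signals were 10379, 15312 and 12262 in dark Ler and 8109.9, 10371 and 11909.9 in red-light Ler, and 10330.0, 14080.3 and 14872 in dark and 8337, 12593 and 14006 in red-light atbzip16. The ranges overlapped in both genotypes, and the average was -0.25 ± 0.16 (adjusted p = 0.273, and 0.0163 with the block). Under quantile normalization the rps3 average was -0.56 and called without the block (limma adjusted p = 0.0207). Under median centring it was -0.12 and not called.

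In the other direction, rps4, which in bacteria is among the first proteins to bind the small ribosomal RNA, had signals of 34139, 25339.5 and 24731 in dark Ler and 39525, 31972 and 28879 in red-light Ler. They were 33028, 26589.7 and 27217 in dark atbzip16 and 35492, 32394 and 34128 in red-light atbzip16. Here replicate 1 was the highest array in all 4 groups. The average of 0.25 ± 0.11 passed only with the block (adjusted p = 0.00969, against 0.131 without it), and under quantile normalization it was -0.06. The rps2 signals were 4615, 3927 and 3378 in dark Ler and 3506, 4946 and 3692 in red-light Ler, and 4874, 3617 and 3364 in dark and 3568, 5766 and 4847 in red-light atbzip16. They overlapped, and the averages of rps2, rps15 and rps19 (0.14, -0.10 and 0.01) passed neither fit.

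Among the 7 genes outside the gene expression machinery or on its edge, 4 rose on average and none fell. All 7 averages were above 0, and 5 of 7 were under quantile normalization, where clpP and matK turned to -0.01 and -0.16. The gene with the smallest p, cemA, encodes a chloroplast envelope membrane protein. Its signals were 12240.0, 10832 and 8387 in dark Ler and 15687, 15259.7 and 14438 in red-light Ler. In atbzip16 they were 11826, 11650.2 and 11173 in the dark and 17376, 17282 and 16993 in red light. All 6 red-light arrays lay above all 6 dark arrays, the only gene of the 25 that was higher in this way. The average log2 fold change was 0.56 ± 0.09 (SE), a 1.47-fold higher signal, with an adjusted p of 0.000814. The response was 0.55 ± 0.13 in Ler (adjusted p = 0.0193) and 0.58 ± 0.13 in atbzip16 (adjusted p = 0.0117), and under quantile normalization the average was 0.27 and still called, while the single responses of 0.24 and 0.29 were not.

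The ccsA gene encodes a protein that attaches heme to c-type cytochromes. Its signals were 1017, 1610.2 and 958.7 in dark Ler and 1346, 1961 and 1799 in red-light Ler. The atbzip16 signals were 1009, 1276 and 1143 in the dark and 1488, 2151 and 1708 in red light. In atbzip16 the light conditions did not overlap, and in Ler dark replicate 2 lay above red-light replicate 1. The average was 0.58 ± 0.15 (adjusted p = 0.0141), with 0.53 ± 0.22 in Ler and 0.63 ± 0.22 in atbzip16, each called with the block (adjusted p = 0.00532 and 0.00141) and not without it (0.145 and 0.0729). It was called in all 12 fits that left out 1 array and under both other scalings.

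The ycf4 protein assists the assembly of photosystem I. Its signals were 7994, 6651 and 5774 in dark Ler and 11476, 7398 and 7621 in red-light Ler. For atbzip16 the signals were 8321, 7185 and 7252 in the dark and 11348, 10197 and 10083 in red light. Light conditions overlapped in Ler and not in atbzip16, and replicate 1 was the highest in every group. The average was 0.42 ± 0.12 (adjusted p = 0.0254). It was not called in 4 of 12 fits that left out 1 array, those without replicate 2 or 3 of either dark group (adjusted p of up to 0.0668), nor under quantile normalization (0.17).

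The accD gene encodes a subunit of the plastid acetyl-CoA carboxylase, which starts fatty acid synthesis. Its signals were 2106, 2342 and 1873 in dark Ler and 2418, 2726 and 3076 in red-light Ler. In atbzip16 they were 2263, 2704 and 2566 in the dark and 2671, 3398 and 3387 in red light. In Ler the light conditions did not overlap, and in atbzip16 red-light replicate 1 lay below dark replicate 2. The average was 0.35 ± 0.10 (adjusted p = 0.0245), and it was not called in 5 of 12 fits that left out 1 array (adjusted p of up to 0.0643). The arrays were dark Ler 3, dark atbzip16 1, red-light Ler 3 and both red-light atbzip16 2 and 3, named by replicate number.

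For clpP, the plastid-encoded catalytic subunit of the Clp protease, the signals were 7721, 11779 and 9817 in dark Ler and 9103, 11977 and 12613 in red-light Ler. They were 8619, 12959 and 11233 in dark atbzip16 and 9519, 15741 and 16191 in red-light atbzip16. The ranges overlapped, and the average of 0.26 ± 0.17 passed only with the block (adjusted p = 0.00925, against 0.273 without it). The intron maturase gene matK and the photosystem I assembly gene ycf3 had averages of 0.13 and 0.07 and passed neither fit. Their signals ranged from 7764 to 18765 and from 487.5 to 1279.

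**Figure D2:**
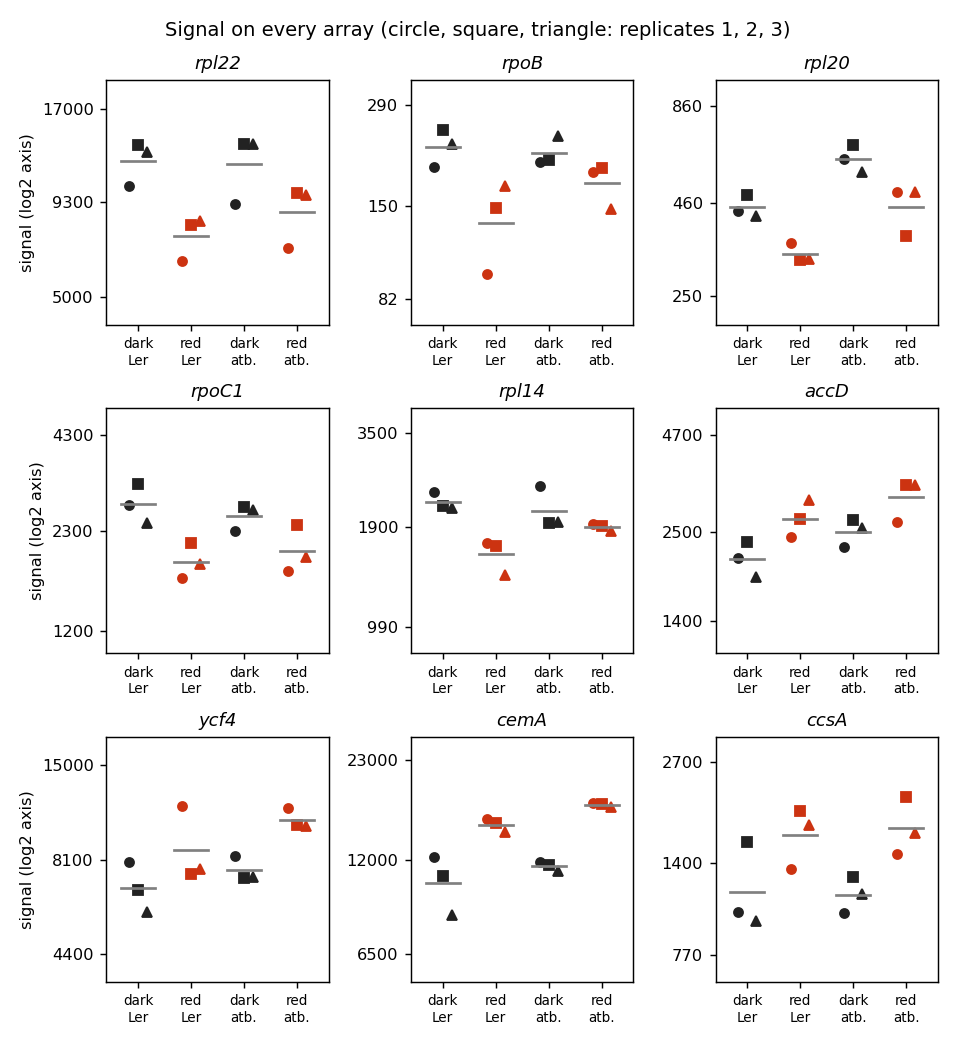
Signal on every array (log2 scale) for the genes that passed the averaged light comparison, in the 4 groups of 3 arrays (atb., atbzip16; dark in black, red light in red). Circles, squares and triangles are replicates 1, 2 and 3, and grey lines are geometric means. Signals of cemA in red light (14438 to 17376) all lie above those in the dark (8387 to 12240.0), and those of rpl14 in red light (1388 to 1930) all lie below those in the dark (1943 to 2469).

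The responses in the 2 genotypes, which share no arrays, had the same sign for 21 of the 25 genes. Over all probe sets 76.2% had the same sign in both. With the replicate block, 8 genes were called in both genotypes, in the same direction each time: accD, ccsA, cemA and ycf4 rose, and rpl20, rpl22, rpoC1 and rps16 fell. With the block, 23.6% of all probe sets were called in Ler and 26.5% in atbzip16. The share called in both was not computed, so the count of 8 has no background to be read against.

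Plastid genes lie in clusters that are often transcribed together, and neighbouring genes were compared directly. Neighbours were taken by gene order alone, without regard to strand or transcription unit, so the genes of a pair need not share a transcript. For each of 28 neighbouring pairs with at least 1 of these genes, the change of the log2 ratio of the pair from dark to red light was tested by an exact two-sided permutation test with light labels permuted within genotype (400 arrangements, smallest possible p 0.005). After adjustment over the 28 pairs, 9 ratios changed. With the replicate number as a block, light labels can be exchanged only within genotype and number, which leaves 64 arrangements and a smallest p of 0.0312. In that exact test 12 ratios reached the smallest p and none passed adjustment (smallest adjusted p = 0.0729). With this smallest p, adjustment over 28 pairs can pass only where most pairs reach it, so this test cannot decide the calls. Of the 9 ratios, only that of accD to rbcL did not reach the smallest p. The calls below are those of the test without the block. In the rpoB operon the 3 polymerase genes moved by -0.50, -0.43 and -0.31 in the order rpoB, rpoC1, rpoC2, and the ratios between neighbours changed by -0.06 and -0.13 without passing (adjusted p = 0.756 and 0.322). Next to them rps2 had 0.14, and its ratio to rpoC2 did not pass (adjusted p = 0.07).

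A run of 5 neighbouring genes, accD, psaI, ycf4, cemA and petA, had averages of 0.35, 0.42, 0.42, 0.56 and 0.48. Here psaI encodes a photosystem I subunit and petA encodes cytochrome f. The ratio of accD to rbcL, its neighbour on the other side and the gene of the large Rubisco subunit, rose by 0.94 (exact permutation p = 0.015, adjusted 0.0467), with rbcL at -0.59. Within replicate numbers the exact p of this ratio was 0.0938. The ratio of petA to cemA changed by only -0.08 and passed all the same (exact permutation p = 0.015, adjusted 0.0467). The ratio of ndhD, a gene of the NADH dehydrogenase-like complex, to its neighbour ccsA changed by 0.01 (adjusted p = 0.985).

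In the ribosomal protein cluster, 3 of 4 adjacent ratios changed. The averages were 0.01 for rps19, -0.58 for rpl22, -0.25 for rps3, 0.19 for rpl16 and -0.32 for rpl14. The ratios rps19 to rpl22, rpl22 to rps3 and rps3 to rpl16 changed by 0.58, -0.32 and -0.44, each with an exact permutation p of 0.005, the smallest possible, and an adjusted p of 0.02. The ratio of rpl16 to rpl14 changed by 0.51 and did not pass (exact permutation p = 0.05, adjusted 0.1). The gene table shows rps3 and rpl22 overlapping at their ends. At the other end of this cluster, the ratio of rpoA to petD, a cytochrome b6f gene that rose by 1.04, changed by -1.27 (exact permutation p = 0.005, adjusted 0.02). The ratio of ycf3 to psaA, a photosystem I core gene, changed by -1.01, and those of rps16 to matK and of psbK to rps16 by -0.91 and 0.92, with the same p.

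**Figure D3:**
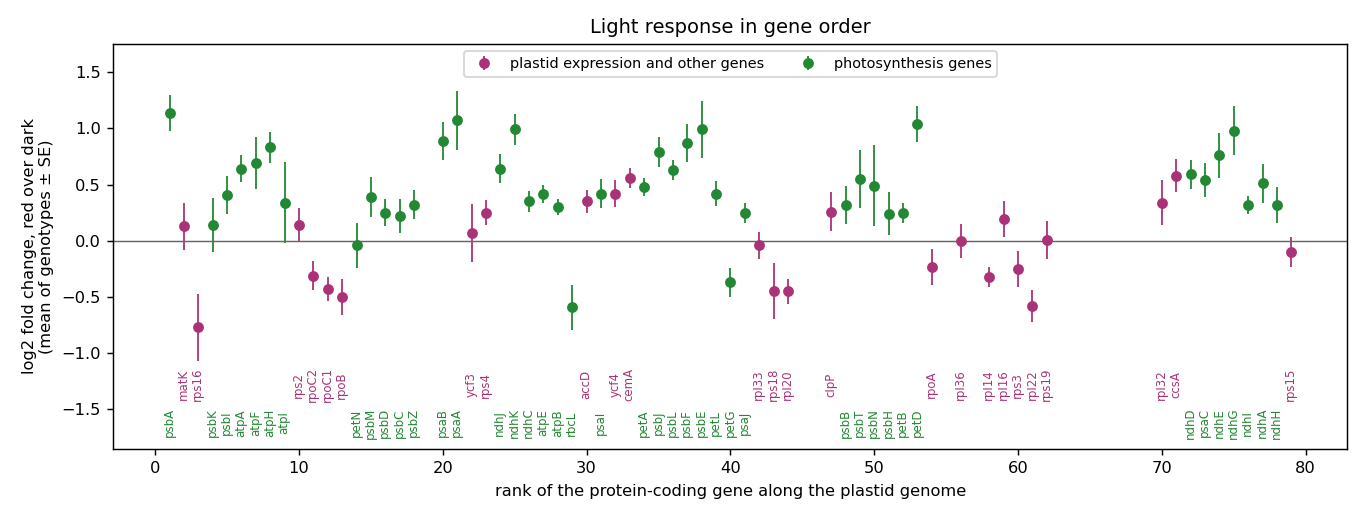
Average log2 fold change, red light over dark (points, with SE bars, 6 arrays against 6), for plastid protein-coding genes in their order along the plastid genome; the x axis is the rank of the gene, not a distance, and genes without a tested probe set are left blank. The run from accD to petA lies above 0, the polymerase genes rpoB, rpoC1 and rpoC2 lie below it, and adjacent ribosomal protein genes from rpl14 to rps19 lie on both sides.

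Deviations from the group means went with the replicate number. Replicate 1 was the lowest array of all 4 groups for 10 of the 25 genes (40%) and the highest of all 4 for 4 (16%), namely cemA, rpl14, rps4 and ycf4. Over all probe sets these shares were 15% and 12.9%, and for the plastid photosynthesis genes 18 of 42 were lowest. The difference of replicate 1 from the mean of the others ran from -1.0 for rps16 to 0.34 for ycf4 on the log2 scale. The labels do not say what a replicate number stands for, and the cause of these deviations was not tested. With the replicate 1 arrays of all groups left out, 17 genes passed on average (background 40.1%), 12 in Ler (background 26.7%) and 12 in atbzip16 (background 29.2%).

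**Figure D4:**
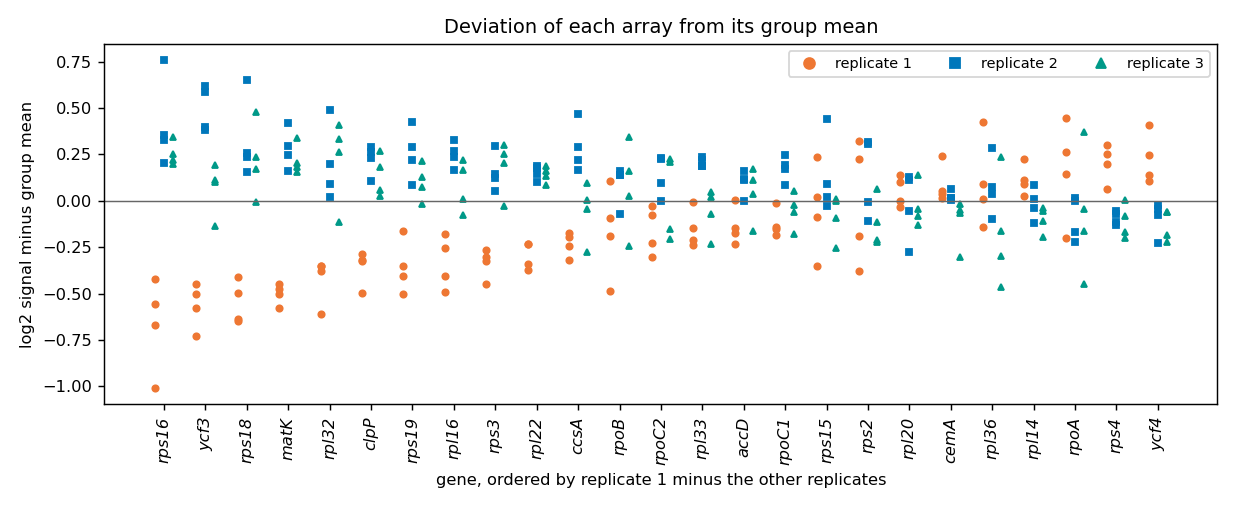
Deviation of each array from its group mean (log2) for the 25 plastid genes, with arrays marked by replicate number. Replicate 1 lies lowest in every group for rps16, ycf3 and rps18 and highest in every group for ycf4, rps4, cemA and rpl14.

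The second question was whether atbzip16 differed from Ler. None of the 25 genes passed in the dark, in red light or in the interaction of genotype and light, with or without the replicate block in limma. The background was 0.0628% in the dark, 0.0377% in red light and 0% for the interaction, and with the block 1.82%, 0.546% and 0.339%. At an unadjusted p under 0.05 (limma without the block) there were 1, 2 and 0 genes. Among all 15922 probe sets the counts were 1003, 817 and 567. Differences of 2-fold in a single gene were outside the 95% confidence interval for 24 of 25 genes in the dark and 24 in red light, and for 19 in the interaction. Across the genes these bounds reached from -0.94 (rps18) to 1.12 (rps16) in the dark, from -0.69 to 1.20 in red light and from -1.19 (rps16) to 1.43 (ycf3) for the interaction.

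The smallest p in both light conditions belonged to rpl20. All 3 atbzip16 arrays lay above all 3 Ler arrays in the dark and again in red light. The log2 difference of atbzip16 from Ler was 0.46 ± 0.15 (SE) in the dark (unadjusted p = 0.0102, adjusted 0.530) and 0.44 ± 0.15 in red light (unadjusted p = 0.0121, adjusted 0.754), and the replicate block gave adjusted p values of 0.157 and 0.282. In red light rpoC2 differed by 0.40 ± 0.18 (unadjusted p = 0.0461, adjusted 0.957). Neither gene passed. The atbzip16 arrays lay above the Ler arrays without overlap for 1 gene in the dark (background 5.86%) and for 4 in red light (cemA, rpl14, rpl20 and rps15, background 5.34%).

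In red light 24 of the 25 differences were positive, with a median of 0.20, where 52.7% of all probe sets were positive and the median was 0.01. In the dark 13 of 25 were positive, with a median of 0.05, which was 0.17 with 19 positive when replicate 2 of dark Ler was left out and -0.08 with 11 positive when its replicate 1 was. The plastid photosynthesis genes gave 36 positive of 42 in red light and 34 in the dark, with medians of 0.17 and 0.12. In red light, the count of 24 was 22 after median centring, 21 after quantile normalization, 17 when replicate 2 of red-light atbzip16 was left out and 18 when replicate 1 of red-light Ler was, with medians of 0.13 and 0.11. The genes share arrays, so this is a count and no test was made of it. With the replicate 1 arrays of all 4 groups left out, ycf4 passed in red light (0.43 ± 0.09, adjusted p = 0.013), the only one of the 25 to do so, where 2.91% of all probe sets were called.

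The products of these genes work with imported proteins, so lists of nuclear partner genes were read from the same fit. Of 102 listed genes 21 had a named probe set, and 20 of these lay above the low-signal limit. On average 3 rose and 1 fell in red light (20% of them, against 24.7% of all probe sets), with a median of 0.03. With the block 5 rose and 3 fell (40% of them, against 38.5% of all probe sets). The gene of the plastid ribosomal protein PRPL3 (AT2G43030) had a log2 fold change of 0.38 ± 0.09 (adjusted p = 0.00727). It was the only 1 of 9 nuclear plastid ribosomal protein genes to pass without the block. With the block, 3 of the 9 rose (PRPL3, PRPL17 and PRPS6) and 1 fell (PRPL19A), 44.4% of them against the 38.5% of all probe sets. FUG1, a plastid translation initiation factor, rose by 0.49 ± 0.14 (adjusted p = 0.0256). In the Clp protease list of 5 tested genes, CLPR3 (AT1G09130) rose by 0.34 ± 0.09 (adjusted p = 0.0196), while CLPT2 (AT4G12060) fell by 0.53 ± 0.15 (adjusted p = 0.0185). CCS1 (AT1G49380), which acts with the ccsA product in cytochrome c assembly, had -0.38 ± 0.18, where ccsA itself had 0.58 ± 0.15, and passed only with the block. The lists of proteins associated with the bacterial-type polymerase and of nuclear acetyl-CoA carboxylase subunits had no named probe set, so no partner of the rpo or accD products was analysed here.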

How the data were processed

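The values deposited are linear probe set intensity, made with MAS5 per the submitters' processing notes, with version and settings not given in the sources used here. Checked on the values, the mean of each array without its extreme 2% was about 500. Intensity was taken to log2 without a pseudocount, and the 30% of 22746 probe sets with the lowest mean log2 signal were left out, leaving 15922. All 12 arrays entered one linear model of 4 group means (limma 3.58.1, R 4.3.3), with moderated variances that follow a trend with signal (eBayes). P values were adjusted by Benjamini-Hochberg within each contrast and called under 0.05. Errors after ± are standard errors.

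Between groups, same-numbered arrays had correlated deviations from their group means over all probe sets (18 pairs, 0.164 to 0.505). Arrays of different numbers gave -0.386 to 0.248 (36 pairs), so the ranges overlapped. The numbers were taken as pairs, and values with the replicate number as a block are printed where they change a call or a count. Among the 25 genes, numbers 2 and 3 correlated with each other (0.178 to 0.767) much as with themselves (0.041 to 0.718).

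Probe sets were named from the platform annotation (13513 of 14016 annotated probe sets had 1 gene), with symbols and gene order from a RefSeq gene table. The genes, the lists and the neighbour test were chosen with earlier results of these data known. Per-array values are given for the 5 genes of each role with the smallest p in the averaged light response. Alternatives tried were the block, other scalings, pseudocount 16, other low-signal filters, no variance trend and leaving out arrays. The fitting steps were tested on simulated data. The replicates' p values measure only the spread between these samples.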

Additional observations from a re-analysis of the deposited data

How the results depend on the processing

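With the replicate number as a block, the number of the 25 genes called rose from 4 to 12 in Ler, from 1 to 9 in atbzip16 and from 9 to 16 on average, and the nuclear partners called rose from 4 to 8. Leaving out the replicate 1 arrays of all 4 groups, an alternative chosen after seeing the data, gave 12, 12 and 17 genes, 12 nuclear partners and 1 gene for the genotype difference in red light. In Ler the count was 2 without a low-signal filter and 1 without the variance trend, and in atbzip16 it was 2 with median centring. Of the 9 ratios of neighbouring genes that changed, 0 passed when light labels were permuted within replicate numbers (the replicate block), a test added after seeing the data, in which 64 arrangements limit the p to 0.0312. With that limit adjustment can pass only where most pairs reach it, so this test cannot decide the calls. Quantile normalization took the photosynthesis genes called on average from 26 to 15. The cause was not tested. Leaving out 1 array at a time gave 1 to 4 genes in Ler, 1 to 2 in atbzip16, 6 to 11 on average, 3 to 6 nuclear partners and 22 to 27 photosynthesis genes, and 0 in the genotype and interaction contrasts. Of 57 light responses of single genes, none reversed a called direction. The block brought 23 of them past the threshold, and pseudocount 16 or leaving out 50% of probe sets changed no call. With 3 arrays per group, the median standard error was 0.21 in 1 genotype and 0.15 on average and the 95% confidence interval of an averaged response had a median width of 0.65 (log2).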
